A study of Mus musculus with 12 samples.

Results

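The genes described here are Lifr, Il6st, Jak1, Jak2, Tyk2, Stat3, Socs3 and Ptpn11, which encode the receptor chains, kinases, transcription factor and regulators of leukaemia inhibitory factor (LIF) signalling. They were picked by symbol, and all 8 had a row among the 11806 genes of the authors' comparison of vitrified with fresh mouse ovarian follicles. The comparison covered 12 libraries of single follicles of outbred CD-1 mice at 16 days of age, with 6 fresh follicles and 6 that had been vitrified, which means preserved by cooling to a glass-like solid. Follicles of both groups were grown one per well in 0.5% alginate gel for 8 days with recombinant follicle-stimulating hormone at 10 mIU/mL. LIF was not among the medium supplements that the labels list. The labels do not name the animal of each follicle, and the test behind the p-values is not stated, so how follicles of 1 animal were treated is unknown here.

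LIF binds the receptor chain LIFR, which pairs with gp130, the product of Il6st and the chain shared by the interleukin-6 family of cytokines. Neither chain is a kinase, so both depend on bound Janus kinases (JAK1, JAK2 and TYK2), which phosphorylate the receptor and then STAT3, a transcription factor that enters the nucleus as a dimer. SOCS3 is made in response to STAT3 and blocks the kinases, while SHP2, the product of Ptpn11, binds the same site on gp130 and links the receptor to the RAS-MAPK branch. LIF is known in the ovary as a local signal that promotes early follicle growth.

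Lifr was 2.04-fold higher in vitrified follicles per the authors' deposited table, and the other 7 genes were between 1.09-fold and 1.40-fold lower. An adjusted p of at most 0.05 over all genes was reached by 1 of the 7 genes that had one, Lifr, against 0.246% of the 10963 genes tested called higher and 0.283% called lower. None of the other 6 tested genes passed (0 of 6), and 2 of them, Il6st and Jak1, had an unadjusted p under 0.05 per the authors' deposited table. Both were lower, against 3.79% of all tested genes lower at that threshold. The 8 genes were chosen with these values known, so the values are given as a description. The table holds 1 total, 1 fold change and 1 p-value per gene and no value per follicle, so whether single fresh and vitrified follicles overlapped could not be read from it. The 95% intervals below were computed from the deposited log2 fold change and p-value of each gene.

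**Figure D1:**
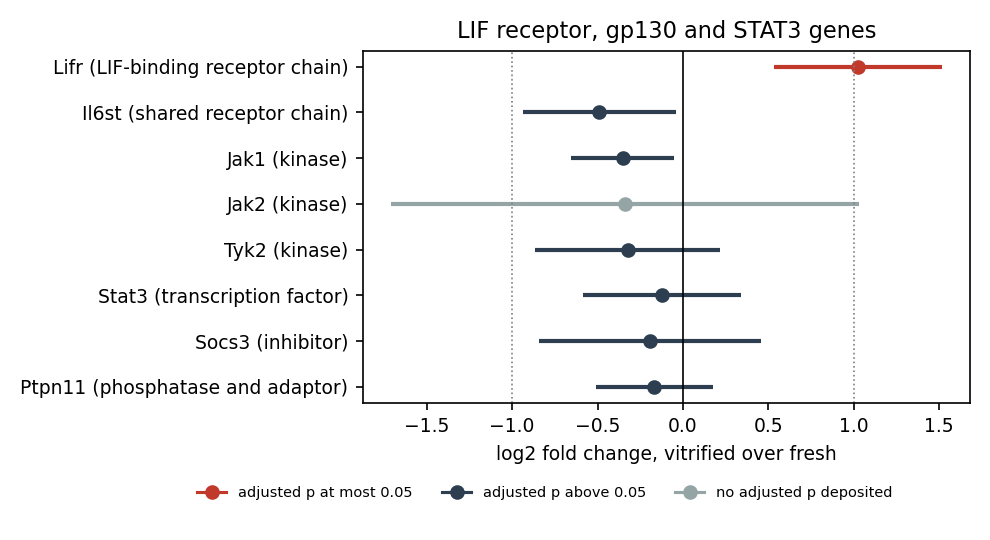
The log2 fold change of vitrified over fresh follicles (points, x axis) with its derived 95% interval (lines) for each of the 8 genes (rows), with dotted lines at 2-fold in either direction. Lifr lies at 1.03 with an interval from 0.53 to 1.52, and the other 7 points lie between -0.49 and -0.12.

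Lifr, on chromosome 15 from 7090614 to 7197489 on the plus strand of GRCm38, encodes the chain that binds LIF. Its log2 fold change was 1.03 with an adjusted p of 0.014 per the authors' deposited table, and the derived interval ran from 0.53 to 1.52, or from 1.45-fold to 2.86-fold higher. By p it stood at place 34 of the 58 genes called, and among the 27 called higher it stood at place 17 by fold change. Of all tested genes, 180, or 1.64%, had a fold change at least as large in either direction. Only 0.296% of its 50-base windows occur in transcripts of another gene and no other annotated gene overlaps it. Its derived standard error of 0.25 on the log2 scale was above that of 79.7% of the 1412 tested genes with a total within 1.5-fold of its own. The derived statistic is read as normal. Read as a t distribution of 10 degrees of freedom, Lifr had an adjusted p of 0.71 and was no longer called. That is the far end of a range from 0.011 to 0.71 over 5 alternatives. Among them is a threshold of 0.1, which leaves the adjusted p as it was.

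GENCODE M21 lists 8 transcripts of Lifr, of which 6 are coding, with coding lengths of 3276 bases in 3, 2157 bases in 2 and 420 bases in 1. Mouse Lifr is known to give a soluble receptor without the membrane-spanning part beside the full receptor. The table has 1 row for the gene, so the forms could not be told apart. Coding transcripts of Lifr start at several places in GENCODE, 7090614, 7129572, 7140542 and 7154353 among them, and their use was not measured. RefSeq places 2 starts in Lifr, at 7129572 and 7140542 of these, and the 250 bases before each are shown because they differ in composition. The first, at chr15:7129322-7129571, has a GC content of 82.4%, and the second, at chr15:7140292-7140541, has 50.8%, against a median of 52.4% over the 32851 windows of the same length in the RefSeq table for GRCm38.p6. Both are on the plus strand and are written 5′ to 3′, with no capitals because neither holds the STAT motif described for Socs3.
Lifr, first start: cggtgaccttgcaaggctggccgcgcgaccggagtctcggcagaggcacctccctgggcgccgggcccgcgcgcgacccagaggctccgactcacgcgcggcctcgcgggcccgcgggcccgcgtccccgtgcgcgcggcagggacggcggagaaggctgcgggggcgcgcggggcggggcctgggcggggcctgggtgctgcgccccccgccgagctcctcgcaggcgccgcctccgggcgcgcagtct
Lifr, second start: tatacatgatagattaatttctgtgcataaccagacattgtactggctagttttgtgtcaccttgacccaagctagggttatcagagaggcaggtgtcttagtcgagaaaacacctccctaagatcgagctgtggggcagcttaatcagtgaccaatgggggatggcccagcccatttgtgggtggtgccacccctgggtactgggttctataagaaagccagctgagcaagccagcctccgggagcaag

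Il6st, on chromosome 13 from 112464070 to 112510086 on the plus strand, encodes gp130, the chain that LIFR needs for signalling. It was 1.40-fold lower per the authors' deposited table, with a log2 fold change of -0.49, an unadjusted p of 0.033 and an adjusted p of 0.63. The derived interval ran from -0.94 to -0.04 and so lay within 2-fold. The intervals of 6 of the 7 genes other than Lifr, Il6st among them, lay wholly below that of Lifr. The log2 fold changes of the 2 receptor chains lay 1.52 apart, a shift of 2.86-fold in the ratio of Lifr to Il6st. That shift was not tested, because both genes were measured in the same libraries and their covariance is not given.

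The Janus kinases differed in level far more than in change. Jak1, on chromosome 4 from 101152367 to 101265282 on the minus strand, had a total of 17972 per the authors' deposited table, above 99.1% of all genes. It was 1.28-fold lower, with a log2 fold change of -0.35, an unadjusted p of 0.022 and an adjusted p of 0.53 per the authors' deposited table. Its derived interval from -0.65 to -0.05 was narrow, and only 5.63% of the 71 tested genes with a total within 1.5-fold had a smaller standard error. Tyk2, on chromosome 9 from 21104068 to 21131243, had a total of 218 and was 1.25-fold lower per the authors' deposited table, with an interval from -0.87 to 0.22 and an adjusted p of 0.97. Jak2, on chromosome 19 from 29251828 to 29313080, had a total of only 34.5 per the authors' deposited table, below the lowest total with an adjusted p, 59.5. It was 1.27-fold lower with an unadjusted p of 0.63 per the authors' deposited table, and the interval from -1.71 to 1.03 left changes of more than 2-fold in either direction within it. At its derived standard error, a call would have needed a 5.90-fold change.

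The signal-bearing factor and its regulators lay close to 0. Stat3, on chromosome 11 from 100885098 to 100939540 on the minus strand, had a total of 1183 and a log2 fold change of -0.12 per the authors' deposited table, with an unadjusted p of 0.60 and an interval from -0.58 to 0.34. Ptpn11, on chromosome 5 from 121130533 to 121191397, stood at -0.17 with an unadjusted p of 0.34 per the authors' deposited table, with an interval from -0.51 to 0.17. Socs3, on chromosome 11 from 117966079 to 117970047, is the feedback inhibitor whose transcription STAT3 drives. It stood at -0.19 with an unadjusted p of 0.56 per the authors' deposited table, with an interval from -0.84 to 0.46. The intervals of Stat3, Ptpn11 and Socs3 each span 0. They also lie within 2-fold, as did those of 6 of the 7 tested genes here and of 69.1% of all tested genes. These p-values do not show that the levels were alike.

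Active STAT3 dimers are known to bind the motif TTCNNNGAA, which reads the same on both strands, and Socs3 is a well-known target. The 250 bases before each RefSeq start of the 8 genes, 9 windows in all, held it in 1 window, that of Socs3, against 7.02% of all 32851 windows. The match lies 154 to 146 bases before the RefSeq start of Socs3. In GENCODE M21 the gene reaches 117970047, so this stretch falls inside the span of the gene there. The 100 bases around it, chr11:117969467-117969566 on the minus strand of GRCm38.p6, are given 5′ to 3′ with the match in capitals, because Socs3 is a known direct target of STAT3 among the 8 genes. A match is a description of these letters, and the other windows say nothing about STAT3 outside them.
Socs3, upstream: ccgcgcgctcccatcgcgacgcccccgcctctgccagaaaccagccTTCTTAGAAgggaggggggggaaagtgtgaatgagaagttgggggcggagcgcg

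Levels of different genes were compared per length, as the deposited total divided by the length of the merged exons in kilobases. Exons were merged over the transcripts that GENCODE tags as basic. Merged over all transcripts, lengths can be greater, with 7492 against 5611 bases for Ptpn11 and 10776 against 10383 for Lifr. Neighbours in the order can therefore change places with this choice. Jak1 led with 3663 per kb, followed by Stat3 with 190.0, Ptpn11 with 139, Lifr with 118, Socs3 with 91.1 and Il6st with 78.1. Tyk2 had 39.3 and Jak2 6.86 per kb. Jak1 thus stood 19.3-fold above Stat3, the next gene, and 93.3-fold above Tyk2, while Lifr stood 1.52-fold above Il6st. With the longest coding transcript as the length, Il6st had 98.8 per kb and passed Socs3, and 6 of the 8 genes kept their place. The totals carry no spread over follicles, so neighbours in this order cannot be called different. Raver2 on the opposite strand overlaps Jak1, Stat5a overlaps Stat3 and the antisense gene 1700084C06Rik overlaps Tyk2, so reads in those overlaps are uncertain if counting ignored strand, which the sources used here do not state.

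**Figure D2:**
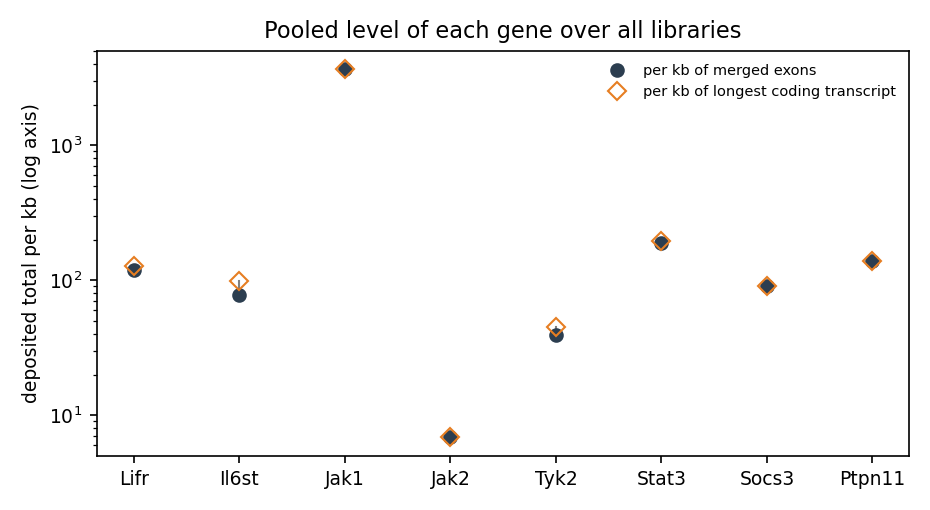
The deposited total of each of the 8 genes (x axis) per kilobase (y axis, log scale), by merged exons (filled circles) and by the longest coding transcript (open diamonds). Jak1 stands at 3663 per kb and Jak2 at 6.86, with the other 6 genes between 39.3 and 196 under either length.

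Precision set what could be called for each gene. At the highest p among called genes, the derived standard errors put the fold change needed for a call at 1.48 for Jak1, 1.56 for Ptpn11, 1.79 for Il6st, 1.81 for Stat3 and 1.89 for Lifr. It was 2.02 for Tyk2 and 2.32 for Socs3. For Jak1, Ptpn11, Il6st, Stat3 and, narrowly, Tyk2 a change of the size seen for Lifr would therefore have passed, while for Socs3 it would not. The median log2 fold change of the 7 tested genes was -0.19 and 6 of them were lower, beside a median of -0.02 and 53.2% lower over all tested genes.

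**Figure D3:**
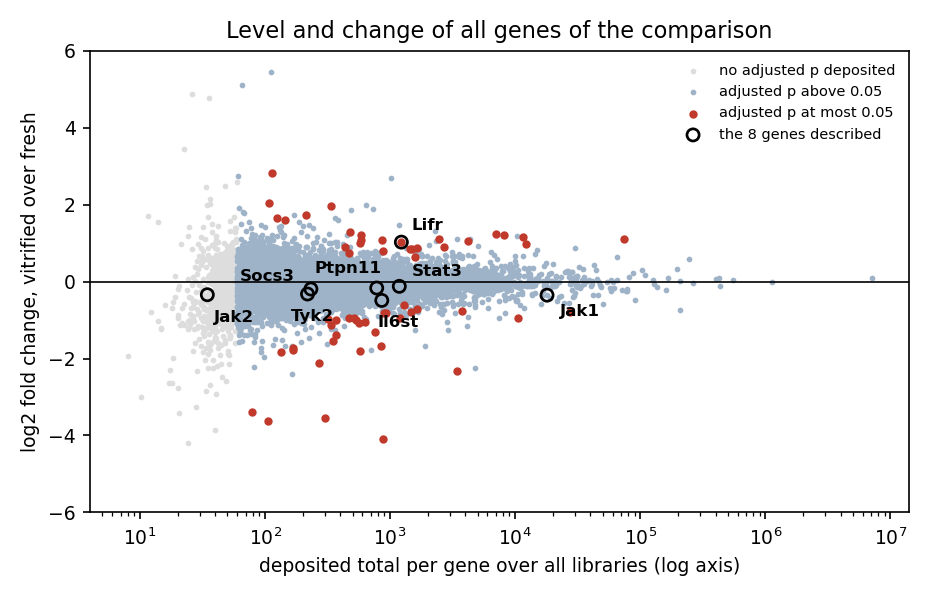
The log2 fold change of vitrified over fresh follicles (y axis) against the deposited total (x axis, log scale) for all 11806 genes, with the 58 called genes in red and the 8 genes circled. Lifr sits among the called genes at a total of 1229 and 1.03, while Jak1 lies far to the right at 17972 and Jak2 among the genes with no adjusted p.

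Of 98 further genes of the pathway, listed by role, 71 had a row in the table used here and 69 an adjusted p. None passed 0.05 in either direction (0 higher and 0 lower) by the authors' test, and at an unadjusted p under 0.05 there were 1 higher and 2 lower, against 3.24% and 3.79% of all tested genes. Their median log2 fold change was -0.02, the same as over all tested genes, with 33 higher and 36 lower.

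Among 11 ligands of gp130 receptors only cardiotrophin 1, Ctf1, had a row, with a total of 34.7 and a log2 fold change of -0.54 per the authors' deposited table (unadjusted p = 0.48). Lif itself, Il6, Il11, Osm and Cntf had none and were not analysed here. Of the 6 partner and alpha receptors 2 had a row. The oncostatin M receptor gene Osmr, which also pairs with gp130, stood at 0.06 with a wide interval from -1.28 to 1.39, and the interleukin-11 receptor gene Il11ra1 at 0.22 (-0.26 to 0.70) per the authors' deposited table. Per kilobase Il11ra1 had 194 and Osmr 20.0, so Lifr at 118 lay between them. Of the 50-base windows of Il11ra1, 46.3% occur in transcripts of other genes, and 6 annotated genes overlap it, so its values are uncertain.

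The other JAK and STAT genes had 0 of 6 tested members past the threshold, and all 6 intervals lay within 2-fold. The STAT genes used by prolactin and growth hormone, Stat5a and Stat5b, stood at 0.05 and -0.07, and Stat6, which serves interleukin-4, at -0.07 per the authors' deposited table. Among 9 other receptors that signal through JAK kinases, 0 passed. The prolactin receptor gene Prlr, with a total of 5067, stood at -0.07, the interferon receptor gene Ifnar1 at 0.08 and Ifngr2 at -0.12 per the authors' deposited table.

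Of 13 tested inhibitors, 7 were higher and 6 lower and 0 passed. Socs2, an inhibitor of growth hormone signalling, had the highest total of the group at 20717 and a log2 fold change of -0.02 per the authors' deposited table, which turns positive once the median of all tested genes is subtracted. Socs7 stood at -0.54 (-0.997 to -0.08) and Pias3, which encodes a protein inhibitor of STAT3, at 0.44 (0.04 to 0.84) per the authors' deposited table, with adjusted p of 0.53 and 0.62. Socs4 stood at -0.07 and Pias4, a SUMO ligase, at 0.12 per the authors' deposited table. Per kilobase Socs2 had 7679 against 91.1 for Socs3.

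Downstream of SHP2, 0 of 16 tested genes of the RAS-MAPK and PI3K arm passed, with 10 higher and 6 lower. The kinase gene Map2k1 stood at -0.04 (-0.34 to 0.27), and the adaptor gene Gab2, with a total of 19324, at 0.23 (-0.39 to 0.85) per the authors' deposited table. The 6 tested nuclear partners of STAT3 were all lower, with a median of -0.09, and 0 passed. Ncoa1, a nuclear receptor coactivator, stood at -0.54 (-1.03 to -0.06) with an adjusted p of 0.60, and the acetyltransferase genes Ep300 and Crebbp at -0.25 and -0.06 per the authors' deposited table. Kpna3, an import factor, stood at -0.06 per the authors' deposited table.

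Genes known as STAT3 targets had 0 of 17 tested members past the threshold or at an unadjusted p under 0.05 (0), with 6 higher and 11 lower and a median of -0.07. Only 6 of the 17 intervals lay within 2-fold. Egr1, an immediate early gene with a total of 60676, stood at -0.02 (-1.23 to 1.19) per the authors' deposited table, and this value too turns positive once the median of all tested genes is subtracted. Fos, also an immediate early gene, stood at -0.42 (-2.23 to 1.38), and the survival kinase gene Pim3 at -0.37 (-0.91 to 0.18) per the authors' deposited table. Fos needed a fold change of 10.3 for a call, so a change of the size seen for Lifr was not detectable in it.

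**Figure D4:**
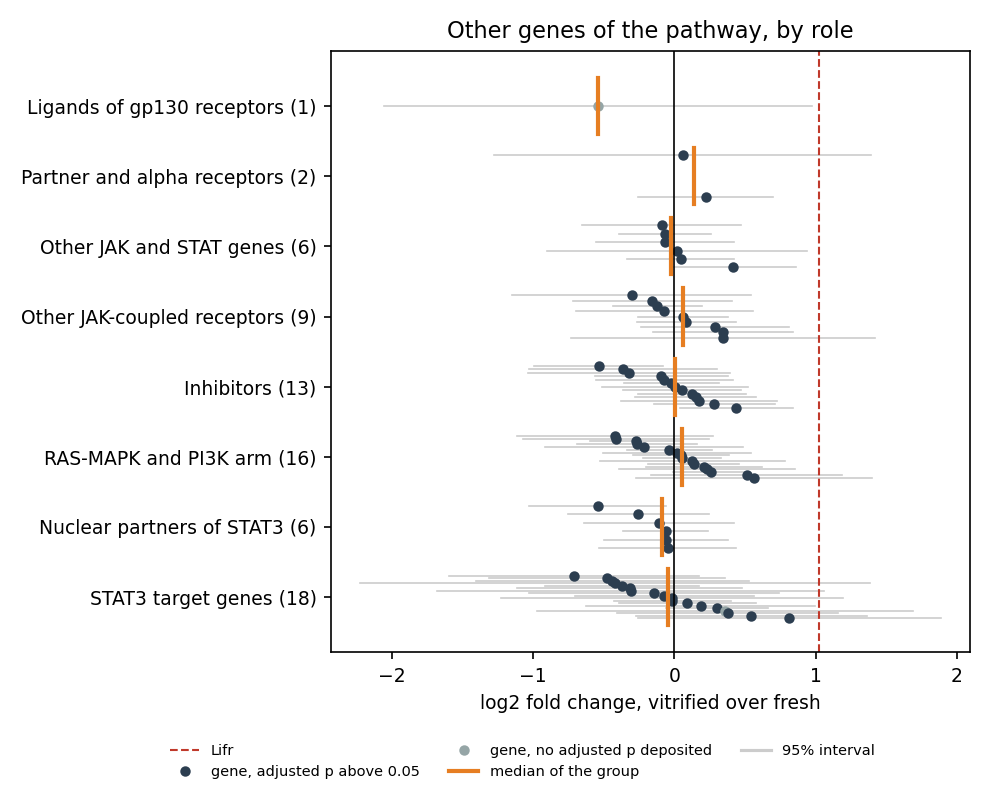
The log2 fold change of vitrified over fresh follicles (x axis) of the 71 further pathway genes with a row (points, with derived 95% intervals as grey lines), by role (rows, number of genes in brackets), with group medians in orange and Lifr as a dashed line. All points lie between -0.71 and 0.81, to the left of Lifr at 1.03.

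Fewer cells of a type and less RNA per cell cannot be told apart in whole follicles, so the markers of follicle cell types are given beside the result for Lifr. All 5 theca markers had a row and were higher, with a median of 1.47 and a range from 0.08 to 2.70, and 0 passed an adjusted p of 0.05. Theca cells are the steroid-making layer outside the granulosa cells. The retinal dehydrogenase gene Aldh1a1 stood at 1.19 with an adjusted p of 0.098 per the authors' deposited table. The theca hormone gene Insl3 stood at 2.70 (1.06 to 4.34) and Star at 1.60 (0.66 to 2.53), with adjusted p of 0.14 and 0.11. These 3 of the 5 theca markers were higher at an unadjusted p under 0.05, against 3.24% of all tested genes. The intervals of Cyp17a1 (-0.04 to 2.97) and Lhcgr (-1.20 to 1.37) span 0. Of 8 oocyte markers with a row, 7 were higher and 1 lower, with a median of 0.75. The zona pellucida genes Zp2 and Zp3 stood at 1.29 (-0.39 to 2.97) and 1.05 (-0.48 to 2.58), and Padi6 at 1.24 (-0.36 to 2.84), per the authors' deposited table. Dazl, a germ cell gene, stood at -2.14 with an unadjusted p of 0.0030 per the authors' deposited table. Its total was only 44.3 and it had no adjusted p. No oocyte marker passed 0.05 (0 of 6 tested). The 7 granulosa markers with a row had a median of -0.02, which turns positive on subtracting the median of all tested genes. Per the authors' deposited table, the inhibin subunit gene Inha had the highest total of all markers, 1121843, so the labelled tissue shows a defining gene. Among them Fshr, the receptor for the hormone in the medium, stood at 0.67 (0.14 to 1.20) with an adjusted p of 0.44 per the authors' deposited table, and Foxl2 at -0.40.

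The 3 endothelial markers with a row were all lower, from -1.66 to -1.25 per the authors' deposited table. Lower too were the 1 immune marker, Lyz2, at -1.05 and the 2 surface epithelium markers, at -1.90 and -2.59 per the authors' deposited table. The intervals of Cdh5 (-3.45 to 0.13), Pecam1 (-3.41 to 0.91), Kdr (-3.32 to 0.47), Krt7 (-4.75 to 0.96) and Upk3b (-6.26 to 1.08) span 0. Kdr, Krt7 and Upk3b had low totals of 46.1, 51.5 and 48.4 and no adjusted p. Lyz2 had an interval from -2.05 to -0.05 and an adjusted p of 0.67 per the authors' deposited table. Of the 5 immune markers, Ptprc, Cd68, Adgre1 and C1qa had no row. The 4 stroma markers had a median of 0.10 and lay between -0.05 and 0.46. The table gives no marker level per group. The part of these cell types in the change of Lifr was not tested.

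**Figure D5:**
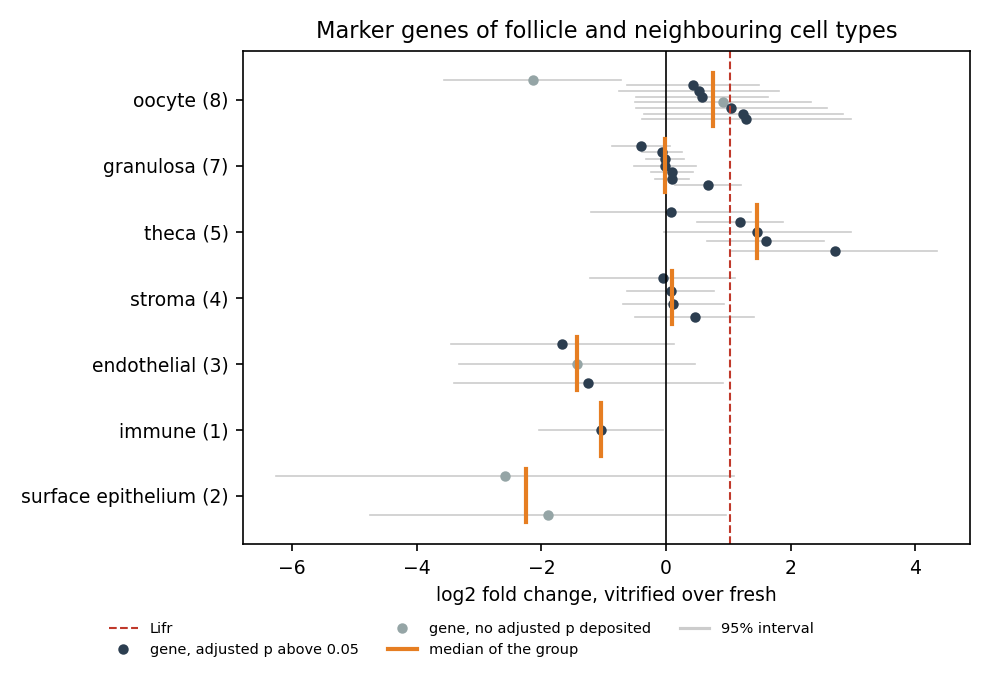
The log2 fold change of vitrified over fresh follicles (x axis) of marker genes (points, with derived 95% intervals as grey lines) by cell type (rows, number of genes in brackets), with group medians in orange and Lifr as a dashed line. Theca markers have a median of 1.47, endothelial markers of -1.42 and granulosa markers of -0.02.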

How the data were processed

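RNA was taken with magnetic beads from the lysate of single follicles and libraries followed a Smart-seq protocol, per the labels' protocols. Bowtie2, HISAT2, Partek, DESeq2 and the build mm10 stand in the submitters' processing notes with neither version nor role. The values deposited by the authors are, per the file headers, 1 total per gene, a p-value with its step-up adjustment, and the change of vitrified over fresh as a signed fold and on the log2 scale. Since 0.237% of the totals were whole (within 0.001), no count test was run on them, and depth per follicle is unknown. The sum of totals was 23783958, with a median of 273 per gene, and the 843 genes without an adjusted p have totals of at most 59.4.

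The authors' adjusted p at 0.05 was the test. It replaced the count model kept in the plan for values per follicle, which the table does not hold. The standard error was derived as log2 fold change over the normal quantile of the p-value, which assumes a two-sided normal test. The calculation was tested on data simulated under that assumption. That cannot show whether the deposited p-values came from such a test. Lengths, coordinates and shared windows came from GENCODE M21 (GRCm38), upstream windows from RefSeq (GRCm38.p6), with Python 3.11.15, pandas 2.3.3 and scipy 1.17.1. All 8 genes matched by symbol. Named pathway genes were the 3 with the highest total in each role group and any with an unadjusted p under 0.05, of which 1 is not reported here. Marker genes named singly were chosen after their values were seen. The genes, lists and rules were chosen with earlier results of these data known.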

Additional observations from a re-analysis of the deposited data

How the results depend on the processing

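The call of Lifr held with no filter on low totals and with a total of at least 100. It also held with log2 fold changes centred on the median, where its adjusted p went down to 0.011. An adjusted p threshold of 0.1 could not have removed it, since a call at 0.05 also passes there. With a t distribution of 10 degrees of freedom, the number of the 8 genes called higher fell from 1 to 0 (adjusted p = 0.71 for Lifr). Its heavier tails raise every p-value, not that of Lifr alone, and how many of the 58 called genes this setting kept is not given here. An unadjusted p under 0.05 was reached by 3.79% of all tested genes as lower and 3.24% as higher. At that threshold, 2 of the 8 genes were lower (Il6st and Jak1), and the pathway list held 1 gene higher and 2 lower, in place of 0. The other 4 settings left these counts unchanged. Centring turned the sign of Socs2 to 0.00077 and of Egr1 to 0.0031, both far within their errors, and of none of the 8 genes and no other pathway gene named. It was not run for each marker, but Inha and the granulosa median lie nearer 0 than the median subtracted and turn positive. Leaving out each follicle and a count or limma model were planned and not run, since the table holds no value per follicle. No paired analysis was possible because the table holds no value per follicle, and no label says that the numbers in the titles pair follicles. Low totals limit Jak2 and Ctf1 most.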
